A study of Mus musculus with 12 samples.

Results

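The 9 genes described here belong to the Notch signalling pathway. They are the receptors Notch1, Notch2 and Notch3, the ligands Dll1, Dll3 and Jag1, and the target genes Hes1, Hes5 and Hey1. They were chosen by gene symbol, with earlier results of these data known, and each symbol stood for 1 of the 39174 gene identifiers in the expression tables. The tables come from RNA sequencing of primary motoneuron cultures of FVB mice, with 12 libraries in 4 groups of 3. SMA cultures (Smn-/-;SMN2, a model of spinal muscular atrophy) lack the mouse Smn gene. They were kept with 0.5 µM R-Roscovitine, a purine inhibitor of cyclin-dependent kinases, or without treatment. Control cultures (Smn+/+;SMN2) have the mouse gene and were likewise kept with 0.5 µM R-Roscovitine or without treatment. All 4 groups carry SMN2, the human paralog of the gene. The labels give no age and name no embryo, litter or culture date for a library, so the spread between libraries may be technical in part.

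Levels are FPKM, sequenced fragments scaled by transcript length and by library size, as the authors deposited them. What 1 read was worth in the low values put the libraries at about 19.5 to 28.7 M reads. Smn1, the deleted gene, averaged 7.29 ± 1.24 FPKM in SMA against 41.1 ± 10.2 FPKM in control libraries without treatment, and 6.40 ± 1.21 FPKM in SMA against 40.8 ± 3.77 FPKM in control libraries with the compound (SD, n = 3). It was the 1 gene of 14982 tested called between genotypes within each treatment, as lower in SMA (0.00667%). The neuronal genes Tubb3 and Map2 were at 92.7 to 204 FPKM and at 237 to 327 FPKM over all 12 libraries. Of 7 genes that mark motoneurons in the tables, 6 stayed below 1 FPKM in every library, and Mnx1 was listed at 0 throughout. Vim, an intermediate filament of progenitors, glia and fibroblasts, was at 1852 to 3278 FPKM. The libraries are therefore called by their genotype and treatment and not by a cell type.

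Notch receptors and their ligands are membrane proteins of neighbouring cells. Binding of a ligand leads to cleavage of the receptor, first by ADAM proteases and then by gamma-secretase, and the freed intracellular domain joins the DNA-binding protein Rbpj to switch on target genes. The Hes and Hey targets are transcription factors that repress proneural genes. In the embryonic spinal cord the pathway is known for holding cells in the progenitor state, while cells that become neurons raise Dll1.

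RefSeq promoter windows of GRCm38.p6, 250 bases before to 50 bases after a transcription start, were found for 7 of the 9 genes. They were searched on both strands for TGGGAA, the core of the Rbpj recognition site, for its longer form GTGGGAA, which contains the core, and for CAGCTG, an E-box bound by proneural factors. The Hes5 window was the one member window with the longer Rbpj form. It held that form 2 times, at -226 to -220 on the opposite strand and at -83 to -77 on the gene strand, counted from the start with no base 0. Of all 32851 windows of this length, 6.38% held the longer form and 0.256% held it 2 times or more. The core alone was in 25.6% of all windows and in no other member window. The E-box was in 16.3% of all windows and in those of Dll1 (at -132), Dll3 (at -7) and Jag1 (at -82). The 250 bases before the start are shown for Hes5, as the member with 2 separate matches of the longer Rbpj form. They are also shown for Dll1 and Dll3, as ligands with an E-box whose values below were high in SMA libraries. The values of Jag1, whose window also held the E-box, were near-equal between genotypes, and its bases are not shown. The choice was made by these values, so it does not tie the E-box to them. The stretches shown are chr4:154960673-154960922 on the plus strand for Hes5, chr17:15376933-15377182 on the minus strand for Dll1 and chr7:28301786-28302035 on the minus strand for Dll3. Capitals mark the Rbpj letters in Hes5 and the E-box in Dll1 and Dll3.
Hes5: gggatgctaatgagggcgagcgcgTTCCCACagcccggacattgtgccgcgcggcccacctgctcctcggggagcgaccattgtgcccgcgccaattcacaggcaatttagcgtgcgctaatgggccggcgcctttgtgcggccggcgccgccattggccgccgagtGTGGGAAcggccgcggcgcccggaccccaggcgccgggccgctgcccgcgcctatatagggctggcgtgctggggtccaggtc
Dll1: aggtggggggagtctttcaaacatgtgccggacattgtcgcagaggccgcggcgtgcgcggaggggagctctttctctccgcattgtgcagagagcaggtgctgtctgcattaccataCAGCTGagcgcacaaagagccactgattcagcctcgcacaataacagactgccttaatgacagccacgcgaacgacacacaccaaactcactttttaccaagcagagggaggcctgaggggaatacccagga
Dll3: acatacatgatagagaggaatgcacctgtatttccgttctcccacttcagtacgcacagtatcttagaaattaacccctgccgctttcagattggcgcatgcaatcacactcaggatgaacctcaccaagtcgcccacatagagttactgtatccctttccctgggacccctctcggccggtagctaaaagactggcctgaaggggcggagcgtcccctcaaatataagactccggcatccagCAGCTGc
The Hes5 and Dll1 windows lie upstream of the loci that the tables give for these genes, while the Dll3 window lies inside the Dll3 locus (chr7:28293553-28302238). A further Dll1 window, at a second RefSeq start, and the windows of Notch1, Notch2 and Notch3 held neither the Rbpj core nor the E-box. They held 0, 3, 1 and 2 matches of the N-box CACNAG, a Hes recognition site that 42.5% of all windows contain, and the Dll1 window shown held 1. A match is a run of letters and not a measured binding site.

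Between genotypes, the averages of Notch1, Notch3, Dll1, Dll3, Hes5 and Hey1 were 1.53 to 6.66 times as high in SMA as in control cultures over the 2 treatments. How many of all genes had such ratios was not counted. The average of Notch2 was 1.06 and 1.11 times as high in SMA, and those of Jag1 and Hes1 were 0.873 to 1.05 times the control average. Averaged over treatment, 4 of the 9 passed the test as higher in SMA: Notch1, Notch3, Dll1 and Hey1. None passed as lower. Among all 14982 genes tested, 3.03% were called higher and 1.8% lower in this comparison. The test was limma on log2(scaled FPKM + 1), with 4 group means over the 12 libraries and Benjamini-Hochberg adjusted p under 0.05 over all genes tested. Fold changes on that scale understate the change of low genes. The median log2 difference of the 9 genes was 0.73, beside -0.01 over all genes tested. Same-numbered treated and untreated libraries of a genotype deviated together, and the 4 calls depended on how these 6 pairs were handled. With the pairs as a random effect, Dll1 alone remained called, where 0.38% of all genes were called higher. With 1 mean per pair, 3 against 3, no member was called, and no gene at all was called higher (0%). The calls also depended on single libraries. The count was 0 of 9 without untreated SMA library 3 or treated SMA library 1, and 1 of 9 without untreated SMA library 1, treated SMA library 3 or untreated control library 2. It was 2 of 9 without untreated control library 3 or without either treated control library 1 or treated control library 2. The share of all genes called under each of these omissions is not given here, so these counts cannot be set beside it. With pairs left out, the share of all genes called higher ran from 0% to 4.96%. No member was called within either treatment, where 0% of all genes were called higher. At an unadjusted p under 0.05, 6 members were higher without treatment, where 7.16% of all genes were, and 5 with the compound, where 8.04% were. Averaged over treatment the same threshold took 6 members, and 11.9% of all genes as higher. SMA libraries lay above control libraries with no overlap for 5 of 9 members without treatment (Notch1, Notch3, Dll1, Dll3 and Hes5; 7.78% of all genes) and for 3 of 9 with the compound (8.9%). Hes5 is among the 6 without treatment, the 6 averaged and the 5 without overlap. It was tested only through 3 SMA libraries, so it adds no support to these counts.

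**Figure D1:**
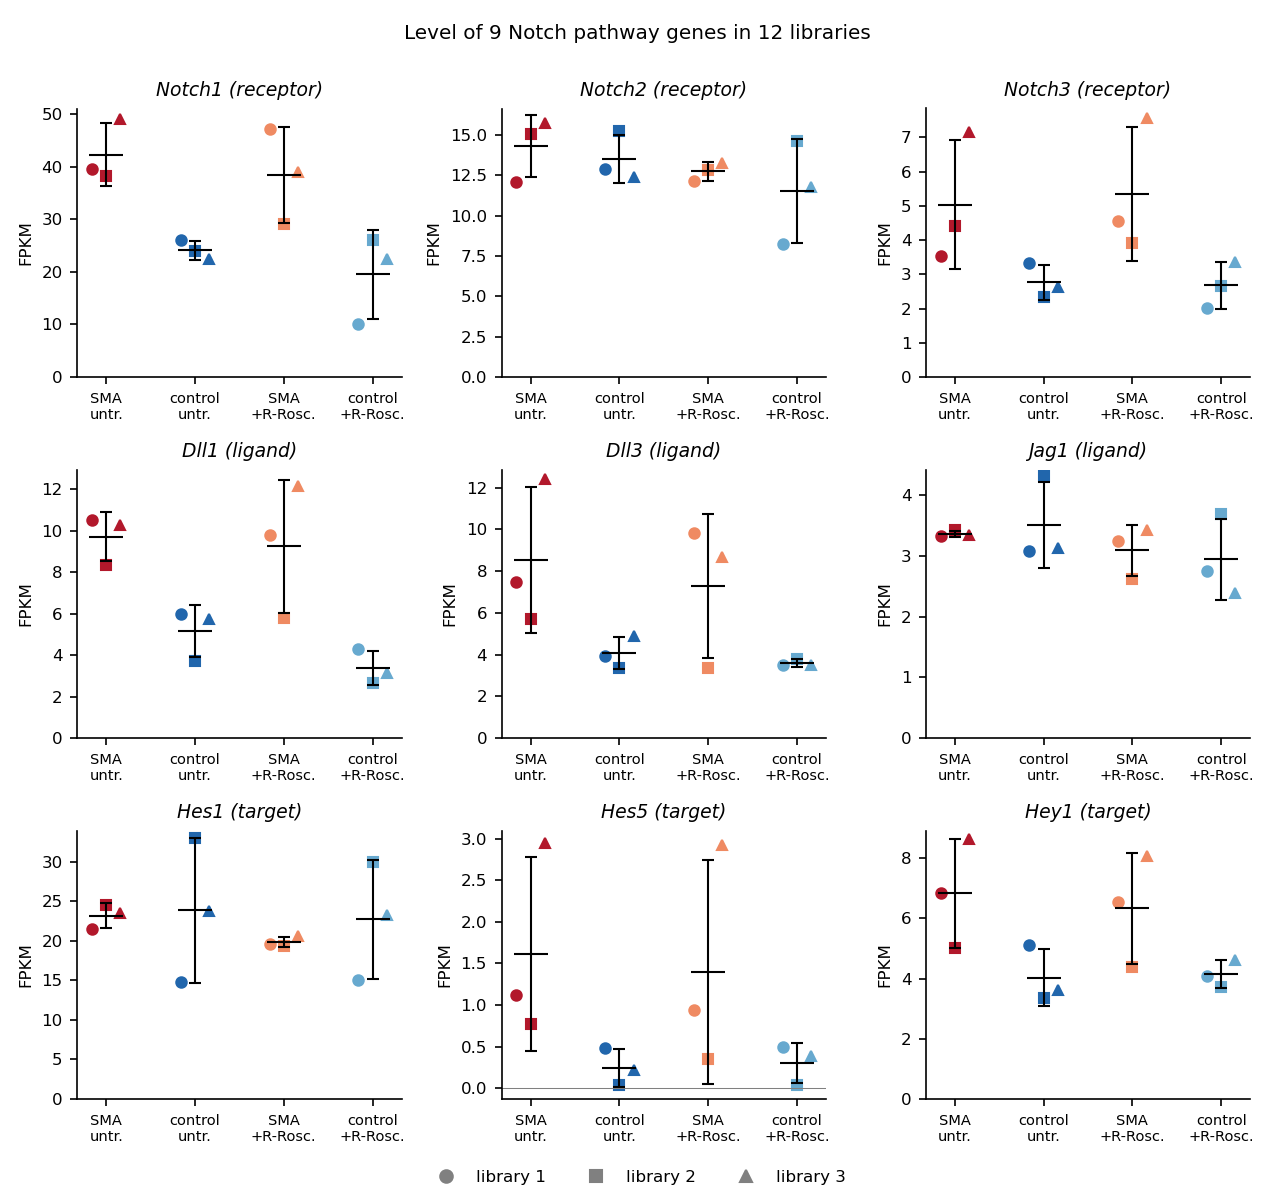
FPKM of the 9 genes in each library, with 1 panel a gene, groups along the horizontal axis and the symbol giving the library number; horizontal marks are means and bars are SD (n = 3). SMA libraries stand above control libraries in both treatments for Notch1, Notch3 and Dll1, and the groups overlap for Notch2, Jag1 and Hes1.

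Notch1 (ENSMUSG00000026923, chr2:26457903-26516663, minus strand) encodes the main receptor of neural progenitors. Without treatment it had 39.5, 38.2 and 49.1 FPKM in SMA cultures, against 26.0, 23.9 and 22.5 FPKM in control cultures. With R-Roscovitine it had 47.2, 29.1 and 38.9 FPKM in SMA cultures, against 10.04, 26.1 and 22.5 FPKM in control cultures. All 6 SMA libraries were above all 6 control libraries, which was so for 1.38% of all genes tested. The lowest value, in treated control library 1, stood far under those of the other 2 libraries of its group. The log2 difference averaged over treatment was 0.92 ± 0.20 (SE, adjusted p = 0.0288), with adjusted p = 0.0933 with the pairs as a random effect and 0.163 with 1 mean per pair. The means were 1.75 times as high in SMA as in control cultures without treatment and 1.96 times with the compound. For each of these 3-against-3 comparisons the exact two-sided permutation p was 0.1, the smallest that 3 against 3 allows. Without both libraries of control number 1 the log2 difference was 0.74 (adjusted p = 0.0538). Of its exonic bases, 7.504% are shared with 0610009E02Rik on the opposite strand, which was at 6.32 to 14.8 FPKM. The strand setting of the quantification is not given in the sources used here, so reads of the shared bases cannot be told apart.

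Notch3 (ENSMUSG00000038146, chr17:32120820-32166880, minus strand), a receptor known from mural cells and from neural stem cells, had 3.53, 4.42 and 7.15 FPKM in untreated SMA cultures, against 3.33, 2.33 and 2.62 FPKM in untreated control cultures. With the compound it had 4.56, 3.92 and 7.57 FPKM in SMA cultures, against 2.002, 2.67 and 3.35 FPKM in control cultures. The 6 SMA libraries were again all above the 6 control libraries, but the gap was narrow, and library 3 was the highest of the SMA libraries in both treatments. The averaged log2 difference was 0.73 ± 0.17 (adjusted p = 0.0370), with adjusted p = 0.0956 with the pairs as a random effect and 0.189 with 1 mean per pair. Without both libraries of SMA number 3 it was 0.49 (adjusted p = 0.213).

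Notch2 (ENSMUSG00000027878, chr3:98013538-98150367, plus strand), the receptor of many glial and mesenchymal cells, had 12.1, 15.1 and 15.7 FPKM in untreated SMA cultures, against 12.9, 15.2 and 12.4 FPKM in untreated control cultures. With the compound it had 12.1, 12.8 and 13.3 FPKM in SMA cultures, against 8.22, 14.6 and 11.8 FPKM in control cultures. The groups overlapped in both treatments. Averaged over treatment, the log2 difference was 0.15 ± 0.13 (adjusted p = 0.527).

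Of the summed FPKM of the 3 receptors, Notch1 took 68.7 ± 2.75% in untreated SMA and 59.7 ± 1.99% in untreated control cultures (SD, n = 3). With the compound it took 67.5 ± 5.60% in SMA and 56.5 ± 6.03% in control cultures. Notch2 took 23.3 ± 2.44% in untreated SMA and 33.5 ± 3.12% in untreated control cultures, and 23.1 ± 4.56% in SMA and 35.2 ± 4.83% in control cultures with the compound. The receptor sum was 55.2 to 72.0 FPKM in untreated SMA against 37.5 to 42.3 FPKM in untreated control cultures. The share of Notch1 was higher in every SMA library than in any control library, since Notch1 differed between genotypes while Notch2 stood at near-equal levels.

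Dll1 (ENSMUSG00000014773, chr17:15367354-15376872, minus strand), the ligand that newly forming neurons present to their neighbours, had 10.53, 8.35 and 10.3 FPKM in untreated SMA cultures, against 6.004, 3.73 and 5.74 FPKM in untreated control cultures. Under R-Roscovitine the values were 9.79, 5.80 and 12.2 FPKM in SMA cultures, against 4.27, 2.67 and 3.15 FPKM in control cultures. The groups did not overlap in either treatment, which held for 3 of the 9 members (Notch1, Notch3 and Dll1) and for 2.47% of all genes tested. Across treatments, treated SMA library 2 was just below untreated control library 1. The averaged log2 difference of Dll1 was 1.03 ± 0.17 (adjusted p = 0.0167). That was the largest of the 9 with a pseudocount of 1, while with a pseudocount of 0.1 Dll1 was at 1.19 and Hes5 at 2.06. It was the one member called with the pairs as a random effect (adjusted p = 0.0478), and its adjusted p was 0.163 with 1 mean per pair. The means were 1.88 times as high in SMA as in control cultures without treatment and 2.75 times with the compound. The change of this difference with the compound was 0.36 ± 0.33 on the log2 scale (adjusted p = 0.9999). Of its exonic bases, 20.6% are shared with A930024N18Rik on the opposite strand, which was at 0.710 to 1.75 FPKM.

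Dll3 (ENSMUSG00000003436, chr7:28293553-28302238, minus strand), a divergent ligand that does not activate receptors of neighbouring cells, had 7.48, 5.70 and 12.4 FPKM in untreated SMA cultures, against 3.95, 3.36 and 4.91 FPKM in untreated control cultures. Treated cultures gave 9.81, 3.36 and 8.69 FPKM in SMA cultures, against 3.49, 3.80 and 3.50 FPKM in control cultures. The untreated groups did not overlap. Among treated cultures SMA library 2 lay below all 3 control libraries, and the other 2 SMA libraries lay above them. The averaged log2 difference of 0.83 ± 0.22 just missed the threshold (adjusted p = 0.0508), with adjusted p = 0.117 with the pairs as a random effect and 0.203 with 1 mean per pair. Without both libraries of SMA number 2 it was 1.16 (adjusted p = 0.00119).

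Jag1 (ENSMUSG00000027276, chr2:137081456-137116644, minus strand), a ligand of the Serrate type, had 3.33, 3.42 and 3.34 FPKM in untreated SMA cultures, against 3.08, 4.32 and 3.12 FPKM in untreated control cultures. Under R-Roscovitine the values were 3.24, 2.62 and 3.42 FPKM in SMA cultures, against 2.75, 3.69 and 2.39 FPKM in control cultures. Averaged over treatment, the log2 difference was 0.03 ± 0.12 (adjusted p = 0.895), and its sign turned under several alternatives. The 3 ligands summed to 21.6 ± 4.29 FPKM in untreated SMA against 12.7 ± 1.21 FPKM in untreated control cultures, and to 19.6 ± 6.84 FPKM in SMA against 9.91 ± 0.768 FPKM in control cultures with the compound. Jag1 took 16 ± 3.40% of that sum in untreated SMA and 28.1 ± 8.52% in untreated control cultures, and 16.8 ± 4.68% in SMA and 29.7 ± 5.76% in control cultures with the compound.

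Hes1 (ENSMUSG00000022528, chr16:30064384-30067796, plus strand), a repressor that keeps progenitors from differentiating and that other signals induce as well, had 21.5, 24.5 and 23.5 FPKM in untreated SMA cultures, against 14.7, 33.03 and 23.7 FPKM in untreated control cultures. With the compound it had 19.6, 19.4 and 20.6 FPKM in SMA cultures, against 15.0, 30.0 and 23.2 FPKM in control cultures. The 3 control libraries of each treatment were spread to both sides of the SMA libraries, in the same order in both treatments. The averaged log2 difference was -0.03 ± 0.19 (adjusted p = 0.953), and its sign depended on the control library left out.

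Hes5 (ENSMUSG00000048001, chr4:154960923-154962371, plus strand), a Hes gene that depends closely on Notch in neural progenitors, had 1.12, 0.773 and 2.95 FPKM in untreated SMA cultures, against 0.483, 0.0327 and 0.212 FPKM in untreated control cultures. Treated cultures gave 0.938, 0.345 and 2.92 FPKM in SMA cultures, against 0.491, 0.0366 and 0.390 FPKM in control cultures. The untreated groups did not overlap, and among treated cultures SMA library 2 lay below 2 of the 3 control libraries. The levels were low, and the lowest control values correspond to about 1.25 and 1.28 reads. Cufflinks' own interval, which covers counting and assignment error only, reached a median of 65.6% of the value to either side, against 3.49% for Notch2. Hes5 was tested because 3 libraries, all SMA, reached 1 FPKM, so a difference in this direction was needed for it to be tested at all. Averaged over treatment, the log2 difference was 0.89 ± 0.26 and missed the threshold (adjusted p = 0.0656), with adjusted p = 0.117 with the pairs as a random effect and 0.258 with 1 mean per pair. The ratio of means was 6.66 without treatment and 4.58 with the compound, larger than the log2 differences show. Without SMA library 3 these ratios were 3.90 and 2.10, and the log2 difference with the compound was 0.33, against 0.76 with all libraries. Of its exonic bases, 31.8% are shared with Gm20421 on the opposite strand, which reached up to 2.55 FPKM.

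Hey1 (ENSMUSG00000040289, chr3:8663362-8667039, minus strand), a Hes-related repressor, had 6.85, 5.01 and 8.63 FPKM in untreated SMA cultures, against 5.11, 3.36 and 3.63 FPKM in untreated control cultures. Under R-Roscovitine the values were 6.56, 4.38 and 8.07 FPKM in SMA cultures, against 4.09, 3.72 and 4.63 FPKM in control cultures. In each treatment SMA library 2 fell within the control range and the other SMA libraries lay above it. The averaged log2 difference was 0.58 ± 0.15 (adjusted p = 0.0495), and adjusted p = 0.113 with the pairs as a random effect and 0.222 with 1 mean per pair. This call was the least stable of the 4, with adjusted p = 0.0560 without scaling between libraries and 0.0501 with a pseudocount of 0.1.

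**Figure D2:**
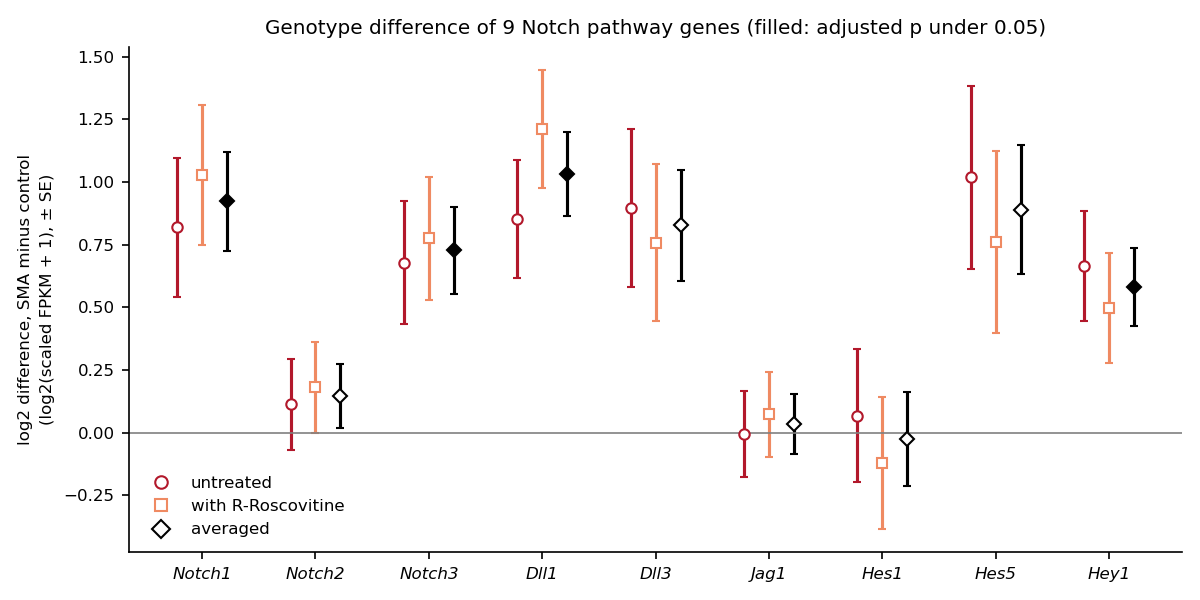
Log2 difference, SMA minus control, of each gene without treatment (circles), with R-Roscovitine (squares) and averaged (diamonds), with SE bars; filled symbols have an adjusted p under 0.05. The filled symbols are the averaged values of Notch1, Notch3, Dll1 and Hey1, from 0.58 to 1.03, while Notch2, Jag1 and Hes1 lie near 0.

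R-Roscovitine changed none of the 9 genes past the threshold in either genotype. In the fit without pairing, no gene of 14982 was called (0%). No member had an unadjusted p under 0.05 there, where 1.53% of all genes did as higher and 0.874% as lower in SMA cultures. In control cultures these shares were 0.561% and 0.694%, and averaged over genotype 0.954% and 0.674%. In SMA cultures the log2 differences, treated minus untreated, ran from -0.25 for Dll3 to 0.08 for Notch3, with a median of -0.15 beside 0.00 over all genes. In control cultures they ran from -0.47 for Dll1 to 0.08 for Hes5, with a median of -0.11. The SE of these values was 0.17 to 0.36. Within same-numbered pairs, 20 of 27 differences in SMA cultures and 16 of 27 in control cultures were negative, and these differences share libraries across genes. Dll1 was lower with the compound in 3 of 3 control pairs, by -0.37, -0.36 and -0.68. Limma without pairing gave -0.47 ± 0.24 (SE, unadjusted p = 0.0674, adjusted p = 0.9997). Hes1 had 19.6, 19.4 and 20.6 FPKM in treated SMA cultures, against 21.5, 24.5 and 23.5 FPKM in untreated SMA cultures, and was the one member whose treated and untreated SMA groups did not overlap, which was so in the lower direction for 4.94% of all genes (log2 -0.21 ± 0.27, adjusted p = 0.999). Within the SMA pairs Hes1 was at -0.13, -0.32 and -0.19. The SE and p printed for Dll1 and Hes1 come from the fit without pairing, so they do not measure the spread of these pair differences. Values of the paired fit are not given here. The largest single difference was that of Notch1 in control pair 1, at -1.24 on the log2 scale, and the other 2 control pairs were at 0.13 and 0.02. No genotype difference of a member changed with the compound past the threshold, with log2 changes from -0.26 for Hes5 to 0.36 for Dll1. No gene was called for this change (0%), and no member had an unadjusted p under 0.05, where 1.03% of all genes did in the positive and 0.874% in the negative direction.

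**Figure D3:**
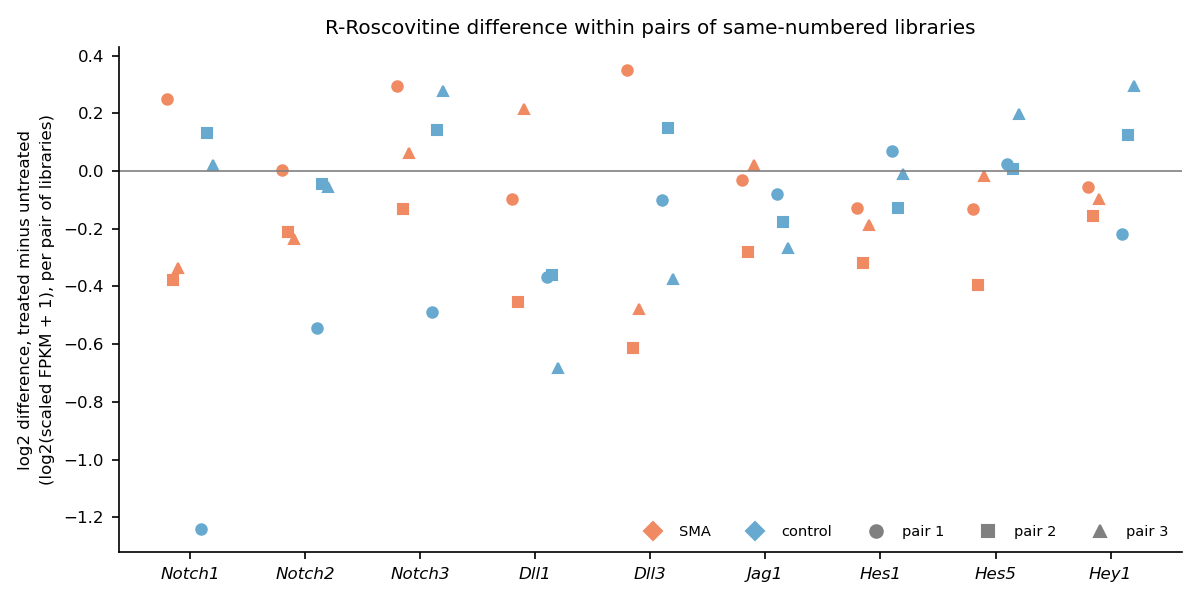
Log2 difference, treated minus untreated, within each pair of same-numbered libraries, for SMA (orange, left in each gene) and control cultures (blue, right); the symbol gives the pair. Most points lie within 0.5 of 0 on both sides, and Notch1 in control pair 1 lies at -1.24.

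Over the 12 libraries, levels per length ran from Notch1 at 31.1 ± 11.5 FPKM (SD) over Hes1 at 22.4 ± 5.34, Notch2 at 13.0 ± 2.05, Dll1 at 6.87 ± 3.23, Dll3 at 5.87 ± 3.04, Hey1 at 5.34 ± 1.78, Notch3 at 3.95 ± 1.78 and Jag1 at 3.23 ± 0.507 to Hes5 at 0.891 ± 1.01 FPKM. The ranges of all neighbours in this order overlapped, and the order differed between genotypes. In SMA libraries Notch1 averaged 40.3 and Hes1 21.5 FPKM, while in control libraries Hes1 averaged 23.3 and Notch1 21.9 FPKM. Dll3 averaged 7.91 and Hey1 6.58 FPKM in SMA libraries, while in control libraries Hey1 averaged 4.09 and Dll3 3.84 FPKM (n = 6 each). Within libraries, the higher one of a pair of neighbours was so in all 12 libraries for Hes1 over Notch2, Notch2 over Dll1, Hey1 over Notch3 and Jag1 over Hes5. Notch1 was above Hes1 in 7 of 12 libraries, and Dll1 above Dll3, Dll3 above Hey1 and Notch3 above Jag1 in 8 of 12 each. The values of 7 genes spanned 1 or more on the log2 scale, which 25% of all genes tested did, and those of Notch2 and Jag1 spanned less.

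Other genes of the pathway were taken from lists of 58 genes, also chosen with earlier results of these data known, of which 49 were tested. Averaged over treatment, 6 of the 49 were called higher in SMA and none lower, beside 3.03% and 1.8% of all genes tested. None of the 6 was called with the pairs as a random effect (adjusted p from 0.0524 to 0.103) or with 1 mean per pair, and none of the 49 was called in the other 6 comparisons. The 6 were 2 further targets, 1 receptor glycosyltransferase, 1 gene of receptor turnover and 2 proneural genes. Nrarp, a target that limits Notch activity, had 4.84 to 10.4 FPKM in untreated SMA against 2.59 to 3.54 FPKM in untreated control cultures, and 4.06 to 9.30 FPKM in SMA against 1.86 to 2.93 FPKM in control cultures with the compound (averaged log2 difference 0.99 ± 0.20, adjusted p = 0.0229). Its groups did not overlap. Hey2, a target related to Hey1, had a log2 difference of 0.71 (adjusted p = 0.0376). Both targets tested beyond the members were thus called, while Heyl, Hes3 and Hes7 were too low to test.

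Lfng, a glycosyltransferase that alters which ligands a receptor answers to, had 12.9 to 22.2 FPKM in untreated SMA against 7.39 to 10.003 FPKM in untreated control cultures, and 9.16 to 20.6 FPKM in SMA against 4.76 to 9.17 FPKM in control cultures with the compound (log2 difference 1.004 ± 0.21, adjusted p = 0.0291). The other 4 glycosyltransferases were not called, the largest value among them being that of Mfng at 0.56 (adjusted p = 0.148). Mfng reached at most 0.531 FPKM in control libraries and 1.89 FPKM in SMA libraries. Only a difference in this direction let it be tested. Among 11 antagonists and turnover genes, Dtx4, a ubiquitin ligase of the Deltex family, had 33.02 to 40.2 FPKM in untreated SMA against 25.2 to 29.8 FPKM in untreated control cultures (averaged log2 difference 0.42, adjusted p = 0.0299), and Hes6, an inhibitor of Hes1, had a difference of 0.44 (adjusted p = 0.145). Insm1 and Neurod4, which act in newly forming neurons, had log2 differences of 0.65 (adjusted p = 0.0317) and 0.80 (adjusted p = 0.0495). The other 2 proneural genes tested had negative differences that were not called, Neurod1 with -0.39 (adjusted p = 0.191) and Myt1 with -0.39 (adjusted p = 0.239). Neurod4 reached 1 FPKM in 4 SMA libraries and in 0 control libraries, so that it was tested at all only through a difference in this direction, and its call adds no support to the count. It was low, at 0.367 to 1.96 FPKM in untreated SMA against 0.0626 to 0.176 FPKM in untreated control cultures.

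The shared machinery of the pathway was not called in any comparison. None of 10 genes of the nuclear complex and none of 10 protease genes passed, with median log2 differences of -0.05 and 0.09 averaged over treatment. The largest values in these lists were 0.37 for Kat2b, an acetyltransferase of the complex (adjusted p = 0.151), -0.19 for Spen, a corepressor (adjusted p = 0.533), 0.37 for Psenen and 0.18 for Aph1a, both subunits of gamma-secretase (adjusted p = 0.132 and 0.314). Of the 3 other ligands tested, Dlk2 had -0.35 (adjusted p = 0.234) and Jag2 -0.24 (adjusted p = 0.358). Of 4 ligand ubiquitin ligases, which act in the cell that sends the signal, Neurl1a had -0.28 and Neurl1b 0.21 (adjusted p = 0.301 and 0.302). The receptor Notch4 and the ligand Dll4 were too low to test.

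**Figure D4:**
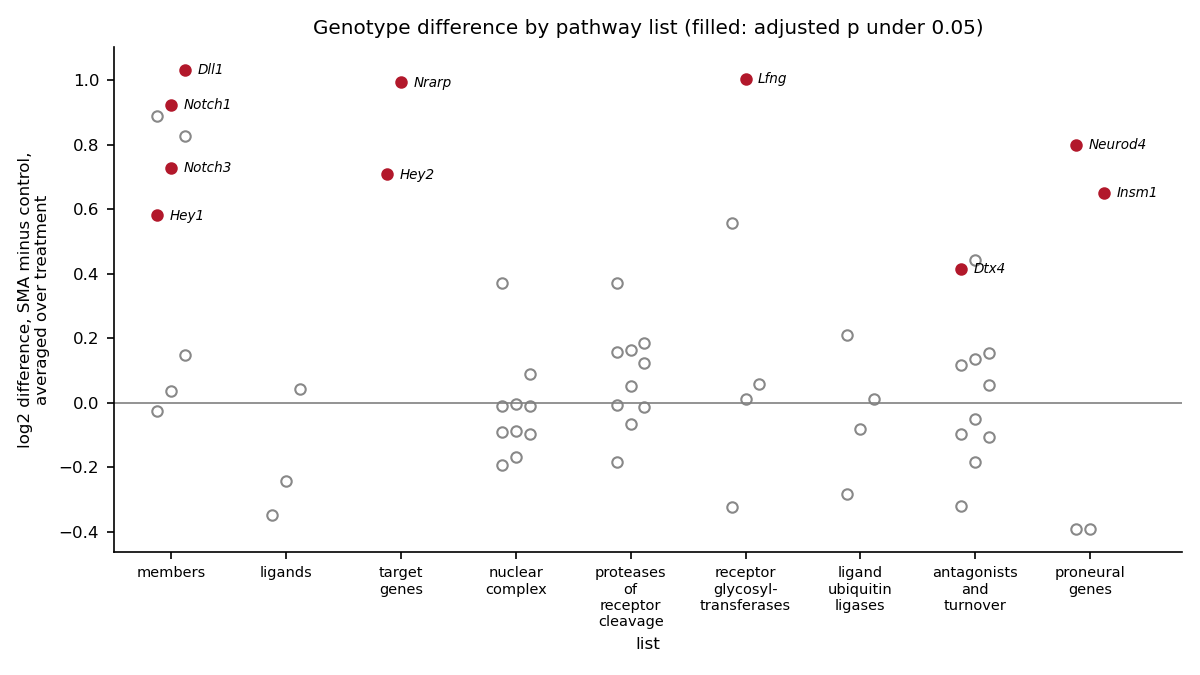
Log2 difference, SMA minus control, averaged over treatment, for each tested gene by list, with the 9 members at the left; filled and named points have an adjusted p under 0.05. The filled points lie above 0.4, among the members, targets, glycosyltransferases, turnover and proneural genes, and none is below 0.

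Within the SMA groups, the libraries did not move independently from gene to gene. SMA library 3 was the highest of its group in 6 of the 9 genes without treatment and in 7 of 9 with the compound. SMA library 2 was the lowest in 5 of 9 without treatment and in 8 of 9 with the compound. Without both libraries of SMA number 2, 6 members were called, Dll3 and Hes5 with the 4, and 4.96% of all genes were called higher. Hes5 adds no support to this count, as only SMA libraries let it be tested. Without both libraries of SMA number 3 or of SMA number 1 no member was called, and 0% of all genes were called higher. Without both libraries of control number 2, control number 1 or control number 3 the count was 0, 1 and 2 of 9, and 0.0734%, 0.36% and 1.82% of all genes were called higher. Notch1, Notch3, Dll1, Dll3, Hes5 and Hey1 each kept a positive averaged difference under every one of these omissions.

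**Figure D5:**
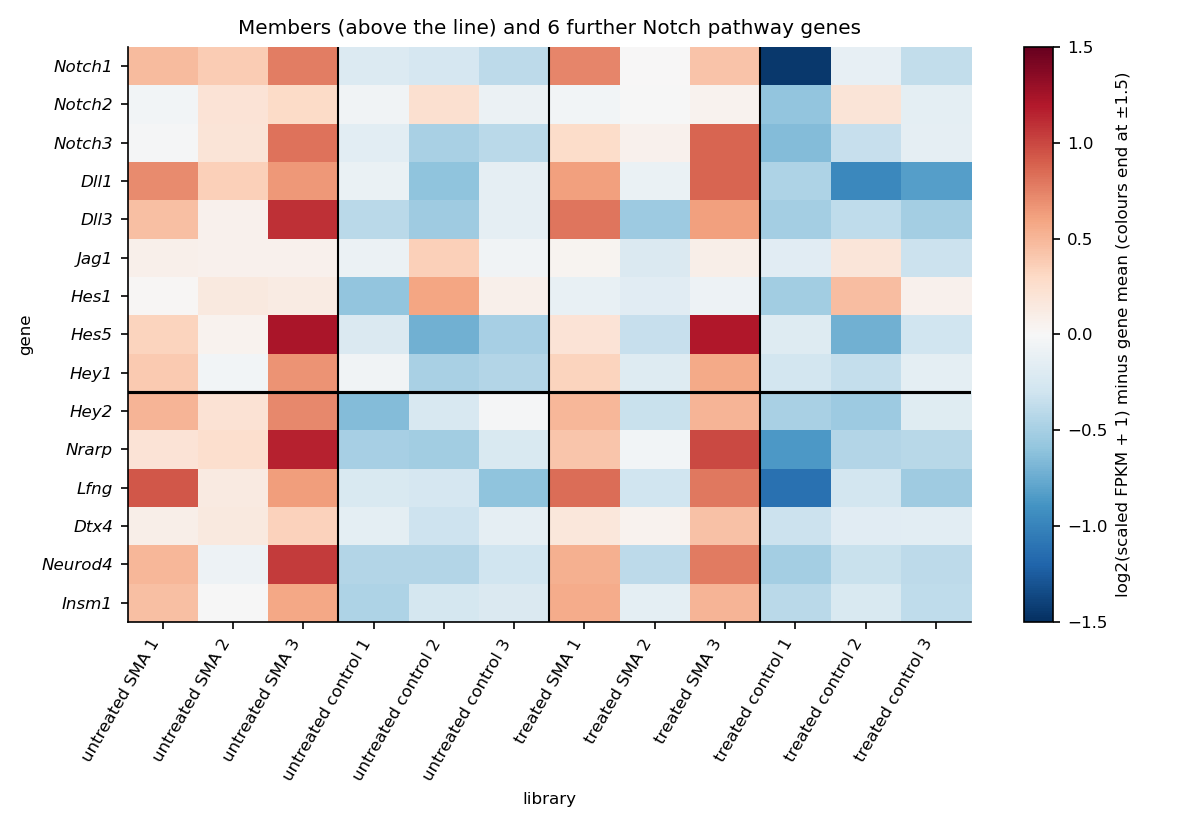
Log2(scaled FPKM + 1) minus the gene's mean over the 12 libraries, for the 9 members above the line and the 6 further pathway genes called below it. Libraries 1 and 3 of both SMA groups are red for most genes, SMA library 2 is paler, or blue for some genes with the compound, and Notch2, Jag1 and Hes1 show no split by genotype.

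Some markers of other cell types differed in the same contrast, in which 3.03% of all genes tested were called higher and 1.8% lower. Of 9 neural progenitor markers, 6 were called higher in SMA averaged over treatment (Sox1, Sox2, Sox3, Fabp7, Msi1 and Prom1) and none lower. Pax6 (log2 difference 0.21, adjusted p = 0.376), Nes (-0.05, adjusted p = 0.804) and Vim (0.006, adjusted p = 0.988) were not called. With the pairs as a random effect 1 of the 6 remained (Sox1, adjusted p = 0.0478), and with 1 mean per pair none did (adjusted p from 0.166 to 0.213). Their sum, in which Vim took 64.4% to 90.5%, was 3002 to 3960 FPKM in untreated SMA against 3354 to 3615 FPKM in untreated control cultures, and without Vim 558 to 1068 FPKM in SMA against 344 to 438 FPKM in control cultures. With the compound the sum without Vim was 401 to 867 FPKM in SMA against 345 to 417 FPKM in control cultures. Of 8 astroglia markers tested, 3 were called higher (Slc1a3, Gfap and Sox9), of which Slc1a3 remained with the pairs as a random effect (adjusted p = 0.0478) and none with 1 mean per pair. Of the 8, 7 had positive differences, and Slc1a2 had -0.22 (adjusted p = 0.491). Gfap reached 1 FPKM in 4 SMA libraries and in 0 control libraries, so only a difference in this direction let it be tested. The astroglia list summed to 195 to 260 FPKM in untreated SMA against 136 to 167 FPKM in untreated control cultures, and to 167 to 265 FPKM in SMA against 115 to 155 FPKM in control cultures with the compound. Olig1 and Olig2, of 5 oligodendrocyte lineage markers tested, were called higher, both also with the pairs as a random effect (adjusted p = 0.0478) and neither with 1 mean per pair, while Mbp had -0.51 (adjusted p = 0.0692) and Cspg4 -0.15 (adjusted p = 0.546). The list summed to 22.3 to 73.0 FPKM in untreated SMA against 11.8 to 17.8 FPKM in untreated control cultures, and to 17.2 to 80.9 FPKM in SMA against 10.1 to 13.3 FPKM in control cultures with the compound. Without Olig1, which made up 23.7% to 73.9% of it, the sum was 8.82 to 24.0 FPKM in untreated SMA against 6.46 to 9.72 FPKM in untreated control cultures, which overlap, and 8.01 to 21.2 FPKM in SMA against 7.14 to 7.90 FPKM in control cultures with the compound.

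The 9 neuron markers all had negative differences, with Syn1 called lower (not with the pairs as a random effect, adjusted p = 0.0631, nor with 1 mean per pair, adjusted p = 0.169), and summed to 708 to 823 FPKM in untreated SMA against 840 to 1234 FPKM in untreated control cultures, and to 810 to 1026 FPKM in SMA against 900 to 1326 FPKM in control cultures with the compound. None of the 6 markers of cycling cells was called. Of the 6 endothelial markers, 5 were below 1 FPKM in all libraries, and Kdr had 0.77 (adjusted p = 0.0664). Of the pericyte and smooth muscle markers Acta2 made up 99.8% to 99.9% of the sum. None of 3 fibroblast markers and none of 2 Schwann cell and neural crest markers tested was called. The fibroblast marker Col1a1 had -0.80 (adjusted p = 0.351), with 63.1 FPKM in untreated and 63.2 FPKM in treated control library 2. What part these cell types have in the differences of the Notch genes was not tested. In such bulk samples, fewer cells of a type and less RNA per cell cannot be told apart.

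The genes whose profile over the 12 libraries was most like that of a member were found by the root-mean-square difference of log2 values, each centred on its own mean. This is a description with the libraries, and the genotype split, shared by all profiles. For Notch1 they were Rfx2 (0.20) and Tspan15 (0.21), for Notch3 the progenitor and glial genes Sox9 (0.11) and Msi1 (0.12), and for Dll1 Kcnip3 (0.18) and Srd5a1 (0.20). For Dll3 they were Neurod4 (0.13) and Peli2 (0.20), and for Hes5 Adcyap1r1 (0.20) and Id4 (0.21). For Hey1 they were Pgpep1 (0.12) and Vangl2 (0.13), and for Hes1 Pnp2 (0.08) and Ptplad2 (0.10). For scale, the root-mean-square deviation of a member from its own mean was 0.33 for Hes1 and 0.63 for Hes5. Among the members themselves the most alike were Notch2 and Jag1 (0.18) and Notch3 and Hey1 (0.22), and the least alike were Hes1 and Hes5 (0.76). Sox9 had 23.6 ± 6.56 FPKM in untreated SMA against 16.1 ± 2.32 FPKM in untreated control cultures, and 23.6 ± 6.23 FPKM in SMA against 13.5 ± 3.74 FPKM in control cultures with the compound (SD, n = 3).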

How the data were processed

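RNA of primary motoneuron cultures was sequenced in 12 libraries, per the labels' protocols with a Lexogen mRNA-Seq kit. The authors deposited FPKM per gene with intervals, per the file headers in Cufflinks format. Cufflinks 2.2.1 and the build GRCm38 are listed in the submitters' processing notes, beside Trim Galore 0.4.0 and FastQC 0.10.1. No aligner, strand setting or annotation is named there (not given in the sources used here). FPKM depend on the assumed transcript length, and no counts are held. Starts in the tables were 1 below GENCODE for 29255 loci, so 1 was added.

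FPKM were scaled by median-of-ratios factors and tested as log2(FPKM + 1) with limma 3.58.1 (R 4.3.3, trend, two-sided) over the 14982 genes at 1 FPKM or more in at least 3 libraries, without small RNA genes. The test was checked on simulated data with independent noise in each library. These hold no pairs, so the check cannot give the rate of false calls here. The 7 comparisons were genotype in each treatment and averaged, treatment in each genotype and averaged, and their interaction. Libraries with the same number and genotype deviated together (correlation of deviations from group means 0.237 to 0.596 in all 6 pairs), while same-numbered libraries of the same treatment across genotypes gave -0.0566 to 0.305. Same-numbered libraries that differ in both gave 0.0518 to 0.322, all positive, so a shared number may also mark something common to both genotypes. The numbers were taken to pair libraries within a genotype, where every correlation was above 0.1 (consensus correlation 0.381). Blocked values stand beside the calls they change, and a fit with the numbers as a block over all 12 libraries is among the alternatives. Single 3-against-3 values were compared by exact permutation. No libraries were identical.

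Named were all 9 members, each pathway gene called, the 2 per list with the largest averaged difference, and the 2 most alike genes of each member spanning 1 or more on the log2 scale. The members and lists were chosen with earlier results of these data known, and 1 listed gene is not reported here. Between 35.8% and 39.0% of low values were whole reads within 0.01, so the depth is an estimate and no count model was used. Python 3.11.15 with pandas 2.3.3 was used for the tables, and matplotlib 3.10.9 for plots.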

Additional observations from a re-analysis of the deposited data

Results flagged for a closer look

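Hes5 was the one value that met a rule for a closer look, because its pairs moved in opposite directions in the 2 genotypes. With R-Roscovitine it was lower than without in 3 of 3 SMA pairs, by -0.13, -0.39 and -0.02 on the log2 scale, and higher in 3 of 3 control pairs, by 0.02, 0.01 and 0.20. Control pair 1 rests on about 18.2 reads without and 18.3 with the compound. Control pair 2 rests on about 1.28 and 1.25 reads, so both are near no change. The difference between the 2 genotypes was -0.26 ± 0.51 (SE, limma interaction term without pairing, unadjusted p = 0.624, adjusted p = 0.9999). That SE measures the spread between libraries and not the spread of the differences within pairs, so it cannot judge the latter. Values of the paired fit are not given here.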

How the results depend on the processing

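Averaged over treatment, 3 to 6 of the 9 genes were called under another scaling, a pseudocount of 0.1, library weights (6) or a replicate block of the numbers over all 12 libraries (6), against 4. That replicate block added Dll3 (adjusted p = 0.0143) and Hes5 (adjusted p = 0.0114), the latter tested only through SMA libraries. Without a filter on low values 0 were called, with 26002 genes tested. With the replicate block within genotype 1 was called (Dll1), and with the replicate block as 1 mean per pair 0. Leaving out 1 library gave 0 to 6, and leaving out 1 pair, chosen after seeing the data, also 0 to 6. Within untreated cultures 1 gene (Dll1) was called with library weights and 1 with the replicate block over all numbers, and leaving out libraries or pairs gave 0 to 1. Within treated cultures these were 1, 1 and 0 to 2. Shares of all genes called are given above only for the averaged comparison, with the pair fits and with pairs left out. The other counts cannot be set beside such a share. The pair fits changed no other call, and no member was called for treatment or interaction under any alternative. The sign turned for Jag1, Hes1 and Notch2. For Jag1 it did so with quantile normalization without treatment (0.0044), and averaged over treatment with a common sum (-0.024) and with library weights (-0.010). For Hes1 it did so with library weights without treatment (-0.28). With 1 library left out at a time, Jag1 ran from -0.082 to 0.14 without treatment, -0.036 to 0.21 with the compound and -0.020 to 0.11 averaged. Hes1 ran from -0.24 to 0.35, -0.38 to 0.11 and -0.18 to 0.12 in the same order, and Notch2 with the compound from -0.027 to 0.37. With 1 pair left out, Jag1 averaged turned to -0.020 and -0.052 and Hes1 to 0.23 and 0.0025. The cause was not tested. Depth limits Hes5 most, whose lowest values rest on about 1.25 and 1.28 reads.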
